A study of Mus musculus with 6 samples.

Results

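The genes described here encode the proteins of the cytosolic ribosome, the particle that carries out translation outside mitochondria. They were taken by name from the count table: rows named Rps or Rpl with a number, the stalk genes Rplp0, Rplp1 and Rplp2, and Rpsa, each with a mean of at least 10 counts over the 6 libraries. The names matched 89 rows, of which 81 passed the minimum, among 55367 rows in all, and all 81 were among the 16976 genes with enough counts to be tested. By name, 33 of the 81 belong to the small subunit and 48 to the large subunit. The 81 lie on 19 chromosomes, and 80 of them are annotated as protein-coding. The exception is Rps4l, which the annotation lists as a transcribed processed pseudogene. The members nearest the minimum were Rpl24 with a mean of 22.3 counts and Rps10 with 82.0 counts, and the closest rows left out were Rpl39l with 9.17 counts and Rpl3l with 6.00 counts.

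RNA-seq was done on neurons from the cerebral cortex of C57BL/6J mice at postnatal day 1 (P1), grown for 2 days in vitro. The 3 WT libraries and the 3 Fmr1-KO libraries came from independently derived samples, and Fmr1-KO mice lack FMRP, an RNA-binding protein that regulates translation. Cells of both genotypes had been depleted of astrocytes and myelin with antibody-coated beads and were grown in the same medium with penicillin and streptomycin. The Fmr1 allele, the sex and the number of pups behind each library are not given in the sources used here. The study asked whether loss of FMRP lowers mRNAs that are degraded by nonsense-mediated mRNA decay (NMD), and the genotypes were compared as Fmr1-KO relative to WT.

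Every ribosome contains a single copy of nearly all of these proteins, and cells therefore make them in matched amounts. Their mRNAs are among the most abundant in growing cells, and most begin with a C followed by a run of C and T letters, the 5′ terminal oligopyrimidine (TOP) motif. Through it, the kinase mTOR and the RNA-binding protein LARP1 adjust the translation of the whole family, mostly without changing mRNA levels. In neurons, ribosomes are also present in dendrites and axons, where proteins are made locally, and FMRP itself associates with ribosomes.

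The start of each gene is shown for 8 members because the TOP motif is what this family is known to share. Each sequence runs 5′ to 3′ on the gene's own strand, with 10 bases before the RefSeq start and 20 bases from it (GRCm38.p6). Capitals mark the stretch of C and T letters from the first C within 5 bases of the start that has at least 4 more of these letters directly after it. Letters just before the capitals may be C or T as well, as in Rpl12, Rpl38 and Rpl35.
Rps2, chr17:24720053-24720082, plus strand: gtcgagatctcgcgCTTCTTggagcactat
Rpl12, chr2:32961702-32961731, plus strand: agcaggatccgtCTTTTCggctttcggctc
Rpl38, chr11:114668570-114668599, plus strand: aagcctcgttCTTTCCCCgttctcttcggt
Rpsa, chr9:120127756-120127785, plus strand: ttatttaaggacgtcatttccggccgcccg
Rps3, chr7:99483690-99483719, minus strand: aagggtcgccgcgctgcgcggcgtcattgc
Rpl35, chr2:39005112-39005141, minus strand: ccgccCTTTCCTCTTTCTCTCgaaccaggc
Rpl18, chr7:45718061-45718090, plus strand: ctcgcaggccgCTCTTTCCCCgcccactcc
Rplp0, chr5:115559457-115559486, plus strand: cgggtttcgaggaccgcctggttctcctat
The first 5 of these genes were called lower in Fmr1-KO, and the last 3 were among the members that differed least. RefSeq starts were found for 60 of the 81 members, with 71 starts in all. A C at the annotated start itself was followed by at least 4 C or T letters in 18.3% of these 71 starts, against 2.51% of 32851 starts of all genes, and a C within 5 bases of the start was followed in this way in 43.7% against 18.3%. Among the members called lower, 3 of 13 starts had such a stretch at the start, and among those not called 10 of 58 had it. Annotated starts can lie some bases away from the base at which transcription begins, and a run that is missing from this window says nothing about the mRNA.

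The ribosomal protein genes differed little between the genotypes. They had a median log2 fold-change of -0.038, that is -2.57%, against 0.0060 for all genes tested. Among genes with a mean above 1000 counts, the median was -0.038 for 77 members and -0.0081 for all genes tested. The median of the 81 members was below 0 under each scaling of the libraries but that to the members' own sum, where it was 0.0099. In edgeR's quasi-likelihood test, with p adjusted over all genes by the Benjamini-Hochberg method, 14 of the 81 members were called lower in Fmr1-KO (17.3%), while 21.9% of all genes tested were called lower. No member was called higher by edgeR or by DESeq2, while 20.7% of all genes tested were called higher by edgeR and 16.5% by DESeq2. No member had an unadjusted p under 0.05 by edgeR in that direction, against 4155 of all 16976 genes tested. DESeq2 called 13 members lower, of which 12 were also called by edgeR, and 19.7% of the genes it tested. Among genes with a mean above 1000 counts, edgeR called 16.9% of 77 members lower, against 28.2% of all genes tested. It called 0 of these members higher, against 23.7% of all genes tested at that depth.

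The members lay close together. The quartiles of the members' log2 fold-changes were -0.064 and -0.018, and those of all genes tested were -0.14 and 0.16. The absolute log2 fold-change had a median of 0.040 in the members and 0.15 in all genes tested. Rps4l was the 1 member that differed by more than 1.2-fold, a size passed by 32.1% of all genes tested. Among all genes tested with a mean above 1000 counts, the quartiles were -0.11 and 0.091. Their absolute log2 fold-change had a median of 0.10, and 16.7% of them passed 1.2-fold. The 77 members at that depth had an absolute median of 0.040, and 0 of them passed 1.2-fold. For 78 of the 81 members the 95% interval of the difference lay within 1.2-fold in either direction, as it did for 41.2% of all genes tested. This share moved with read depth: among all genes tested with a mean above 1000 counts it was 71.4%, and among such members it was 77 of 77. The 3 members whose interval reached further were Rps4l, Rpl24 and Rps10, none of which passed 1000 counts.

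**Figure D1:**
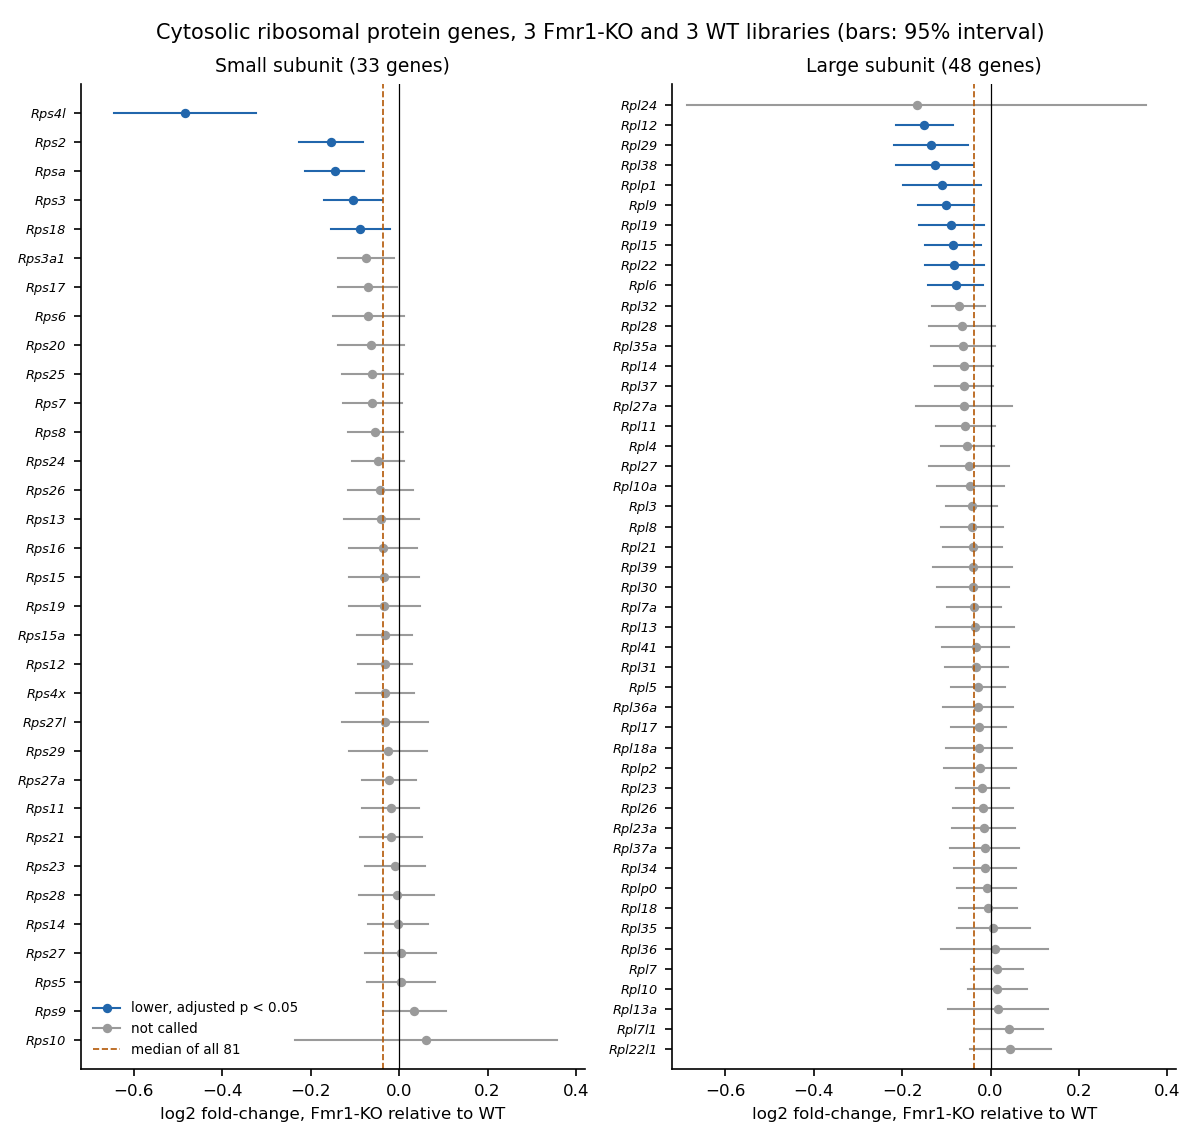
Log2 fold-change of each of the 81 ribosomal protein genes in Fmr1-KO relative to WT, for the small subunit (left) and the large subunit (right). Points are edgeR estimates and bars 95% intervals from 3 libraries of each genotype; blue marks the 14 genes called lower, grey the 67 not called, and the dashed line the median of -0.038, which turns to 0.0099 when libraries are scaled to the members' own sum.

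**Figure D2:**
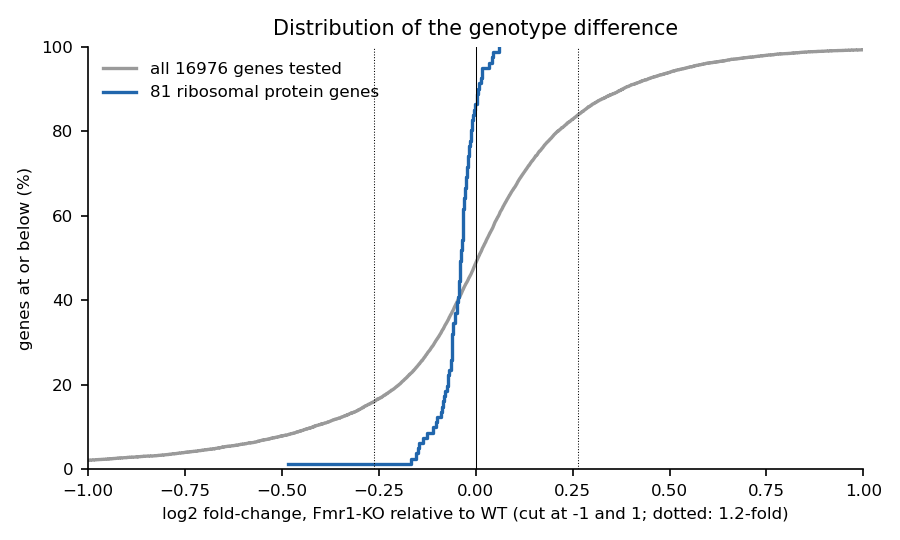
Cumulative share of genes (%) against log2 fold-change in Fmr1-KO relative to WT, for the 81 ribosomal protein genes (blue) and all 16976 genes tested (grey). The blue curve climbs steeply, with quartiles of -0.064 and -0.018, while the grey curve is spread out, with quartiles of -0.14 and 0.16. Among all genes tested with a mean above 1000 counts the quartiles were -0.11 and 0.091. Dotted lines mark 1.2-fold, and the axis is cut at -1 and 1.

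As a share of all counts, the family was as large in Fmr1-KO as in WT within the spread of the libraries. The 81 members took up 1.73%, 1.76% and 1.80% of the counts in WT replicates 1, 2 and 3, and 1.80%, 1.69% and 1.74% in the same replicates of Fmr1-KO. These shares overlapped, and their means were 1.77% ± 0.035 for WT and 1.74% ± 0.055 for Fmr1-KO (SD, n = 3). After TMM scaling, which sets the libraries to a common level over most genes, the WT libraries had a summed level of 17839 ± 345 CPM (counts per 1000000 counts of the scaled library; SD, n = 3), and the Fmr1-KO libraries of 17260 ± 533 CPM. The summed level of Fmr1-KO replicate 1, at 17815 CPM, lay above those of WT replicates 1 and 2, at 17525 and 17784 CPM.

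Fmr1-KO replicate 2 was the lowest of the 6 libraries for 65 of the 81 members, and WT replicate 3 was the highest for 46 of them. Relative to the mean of the 6 libraries, the median log2 level of the members was 0.024 in Fmr1-KO replicate 1, -0.067 in replicate 2 and -0.026 in replicate 3. In WT replicates 1, 2 and 3 it was 0.0014, 0.018 and 0.048. In place of 14, 8 members were called lower when Fmr1-KO replicate 2 was left out, 6 when WT replicate 3 was and 7 when Fmr1-KO replicate 3 was. Leaving out 1 of the other 3 libraries gave 12 to 16. Each of these fits had fewer libraries for every gene, and the share of all genes called in them is not given here.

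**Figure D3:**
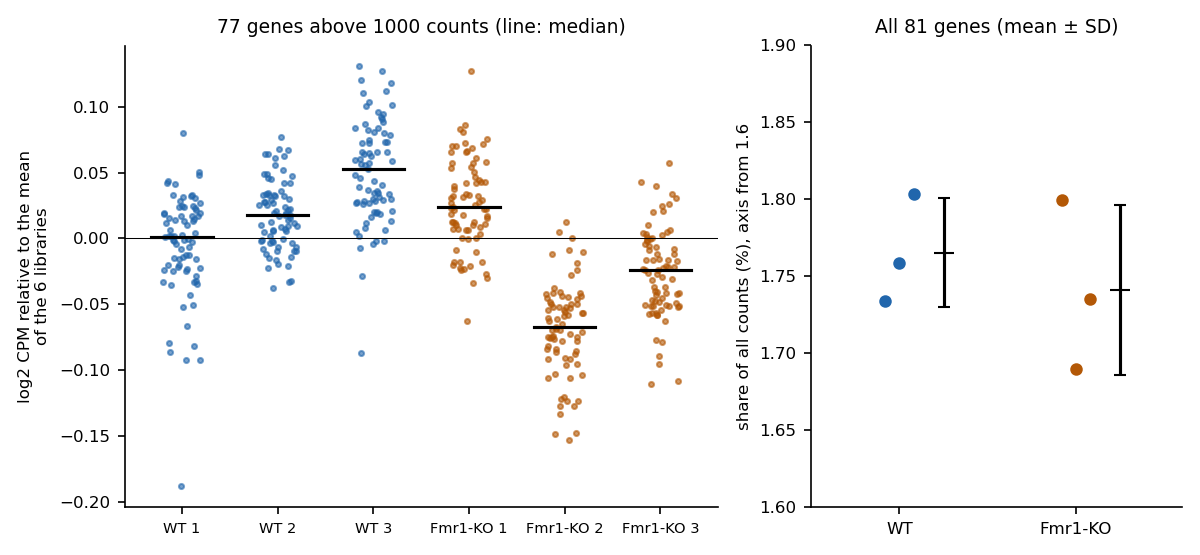
Left, log2 CPM of the 77 ribosomal protein genes above 1000 counts relative to each gene's mean over the 6 libraries; points are genes and black lines medians. Right, share (%) of all counts held by the 81 genes, with points for libraries and mean ± SD of 3; the axis starts at 1.6. Fmr1-KO replicate 2 is low for most genes, and the shares of the genotypes overlap between 1.73% and 1.80%.

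In the small subunit, 5 of 33 members were called lower (15.2%), and the median log2 fold-change was -0.035 (0.012 when scaled to the members' own sum). In the large subunit, 9 of 48 were called lower (18.8%), and the median was -0.040 (0.0077 with that scaling). Both shares were below the 21.9% of all genes tested, and with library totals alone 3 and 2 members were called. The ratio of small-subunit to large-subunit counts was 0.726, 0.725 and 0.725 in WT replicates 1, 2 and 3. In Fmr1-KO replicates 1, 2 and 3 it was 0.724, 0.719 and 0.724. The means were 0.7255 ± 0.00090 for WT and 0.7223 ± 0.0033 for Fmr1-KO (SD, n = 3), a fall of 0.433%. All 3 Fmr1-KO values were below the WT values, but Fmr1-KO replicate 1, at 0.7243, lay close to WT replicate 2, at 0.7247.

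Of the genes that encode small-subunit proteins, Rps2, Rpsa, Rps3 and Rps18 were called lower. Rps2, whose protein lies near the mRNA entry channel, had 361, 344 and 374 CPM in WT and 337, 313 and 320 CPM in Fmr1-KO. Every Fmr1-KO library was below every WT library (log2 fold-change -0.15, SE 0.034, adjusted p = 0.000967 by edgeR). Rpsa, known also as the laminin receptor precursor, had 514, 516 and 542 CPM in WT and 489, 455 and 478 CPM in Fmr1-KO. The genotypes again did not overlap, with a log2 fold-change of -0.15 (SE 0.032, adjusted p = 0.000904 by edgeR). Rps3, which sits at the mRNA entry and also takes part in DNA repair, had 510, 516 and 525 CPM in WT and 493, 459 and 492 CPM in Fmr1-KO. Its libraries were likewise apart, by 6.94% on average (log2 fold-change -0.10, SE 0.031, adjusted p = 0.0109 by edgeR). Rps18, a protein of the head of the small subunit, was 5.91% lower, from 167 ± 4.97 to 157 ± 2.53 CPM (SD, n = 3). The call of Rps18 was lost with upper-quartile scaling, with library totals alone and when WT replicate 3 or either of Fmr1-KO replicates 2 and 3 was left out, and that of Rps3 with library totals alone.

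Among the genes of the large subunit, Rpl12, Rpl29, Rpl38, Rpl9, Rpl19, Rpl15, Rpl22 and Rpl6 were called lower, together with Rplp1, described with the stalk. Rpl12, part of the base of the stalk, had 302, 300 and 319 CPM in WT and 279, 274 and 277 CPM in Fmr1-KO. These libraries did not overlap, and the spread in Fmr1-KO was small (log2 fold-change -0.15, SE 0.031, adjusted p = 0.000424 by edgeR). Rpl29 had 87.9, 87.4 and 91.2 CPM in WT and 86.2, 77.9 and 78.6 CPM in Fmr1-KO. Fmr1-KO replicate 1 came close to the WT libraries. The log2 fold-change of -0.13 (SE 0.040) had an adjusted p of 0.00983 by edgeR, and the call was lost without Fmr1-KO replicate 3. Rpl38, known for its role in the translation of Hox mRNAs and mutated in Tail-short mice, had 67.0, 66.7 and 70.3 CPM in WT and 65.3, 58.6 and 62.9 CPM in Fmr1-KO. All 3 Fmr1-KO values were the lower ones, by 8.45% on average (log2 fold-change -0.13, SE 0.042, adjusted p = 0.0196 by edgeR). Its call was lost with library totals alone and when either WT replicate 3 or Fmr1-KO replicate 2 was left out.

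The other 5 large-subunit genes in this group were lower by 5.32% to 6.76%. Rpl9 fell from 344 ± 10.8 to 320 ± 4.98 CPM (SD, n = 3; adjusted p = 0.0106 by edgeR), with no overlap between the genotypes. Rpl15, mutated in some patients with Diamond-Blackfan anemia, an inherited failure of red cell production, had 173, 178 and 176 CPM in WT and 168, 164 and 165 CPM in Fmr1-KO. Rpl19, which helps to join the subunits, had the largest adjusted p of the called members, 0.0485 by edgeR, and Fmr1-KO replicate 1 lay within its WT range. Rpl6 had 255, 264 and 269 CPM in WT and 250, 249 and 247 CPM in Fmr1-KO, a fall of 5.32%. These calls depended on the setting. Among 14 settings that of Rpl19 was lost in 7, DESeq2 among them, those of Rpl15 and Rpl6 in 6 each, and that of Rpl9 in 2. Library totals alone ended each of these calls, as did leaving out WT replicate 3.

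**Figure D4:**
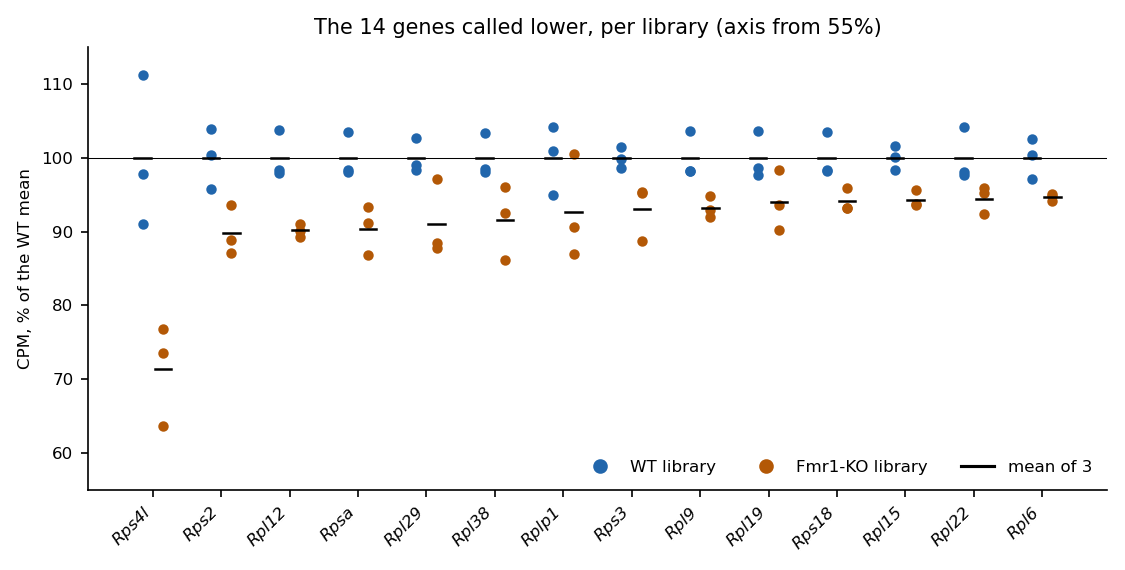
CPM of the 14 ribosomal protein genes called lower in Fmr1-KO, as % of the WT mean, with points for the 3 WT (blue) and 3 Fmr1-KO (orange) libraries and black lines for means; the axis starts at 55%. Rps4l stands apart with a fall of 28.6%, the other 13 lie 5.32% to 10.1% below WT, and Rplp1 and Rpl19 have 1 Fmr1-KO library within the WT range.

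In 20 members the highest Fmr1-KO library was below the lowest WT library, among them 12 of the 14 called, and in 0 members the order was the reverse, against 26.3% and 25.4% of all genes tested. The calls of 4 members were kept without any single library and under each scaling that was run. The 14 settings counted here did not include the reported fit. The settings were another count model, other scalings and filters, the replicate number as a block and 6 fits without 1 library each. Rps4l, Rps2, Rpl12 and Rpsa were called lower in each of the 14. They were also the 4 members still called lower when the libraries were scaled to the members' own summed counts, a comparison within the family that was added after the data had been seen. On that scale their log2 fold-changes were -0.44 for Rps4l, -0.11 for Rps2, -0.10 for Rpl12 and -0.098 for Rpsa, with adjusted p of 4.64e-05, 0.0390, 0.0462 and 0.0463 by edgeR. That scaling called 15.2% of all genes tested lower. With library totals alone 5 members were called lower, against 18.9% of all genes tested. In a test against a change of 1.2-fold, Rps4l alone among the members was called lower, against 7.89% of all genes tested.

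Rps4l is a copy of Rps4x without introns, on the plus strand of chromosome 6 from 148354656 to 148355598. It had 20.1, 21.6 and 24.6 CPM in WT and 17.0, 14.1 and 16.2 CPM in Fmr1-KO, a fall of 28.6%. The libraries of the genotypes were well apart, with a log2 fold-change of -0.48 (SE 0.077, adjusted p = 2.8e-05 by edgeR). Its parent Rps4x on chromosome X had 312 ± 9.43 CPM in WT and 305 ± 8.01 CPM in Fmr1-KO (SD, n = 3), with a log2 fold-change of -0.03 (SE 0.031, adjusted p = 0.454 by edgeR). The transcripts of the pair were identical at 78.6% of 903 aligned bases, with no more than 38 identical bases in a row, and reads were 100 bases long. Of all 100-base stretches of Rps4l, 1.66% occur unchanged in transcripts of another gene.

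The stalk of the large subunit recruits translation factors and is built from the products of Rplp0, Rplp1 and Rplp2. Rplp1 had 366, 389 and 401 CPM in WT and 387, 335 and 349 CPM in Fmr1-KO. Fmr1-KO replicate 1 was near the middle of the WT range, and the call (log2 fold-change -0.11, SE 0.043, adjusted p = 0.0430 by edgeR) was lost in 7 of the 14 settings, DESeq2 among them. Rplp0, the stalk's anchor, had 620.5 ± 6.16 CPM in WT and 617 ± 28.1 CPM in Fmr1-KO (SD, n = 3), with a 95% interval of the log2 fold-change from -0.075 to 0.057. Rplp2 had 253 ± 14.9 and 249 ± 10.2 CPM, and an interval from -0.10 to 0.057. Neither passed the threshold, and whether Rplp1 differed from them was not tested.

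Rps6, Rpl5 and Rpl11, whose proteins are known from signalling as well as from the ribosome, were not called. Rps6, the main substrate of the S6 kinases, had 161 ± 6.49 CPM in WT and 154 ± 7.89 CPM in Fmr1-KO (SD, n = 3), with a log2 fold-change of -0.07 (SE 0.038, adjusted p = 0.155 by edgeR). It was called lower without Fmr1-KO replicate 1 (-0.11, adjusted p = 0.0417 by edgeR). Rpl5 and Rpl11, which with 5S rRNA bind Mdm2 and so stabilize p53 when ribosome assembly fails, had log2 fold-changes of -0.03 (95% interval -0.090 to 0.032) and -0.06 (-0.12 to 0.0093). Rpl11 was called lower without Fmr1-KO replicate 1 (-0.09, adjusted p = 0.0498 by edgeR). Of the 18 members in which mutations cause Diamond-Blackfan anemia, Rpl15 was called lower (5.56%, against 21.9% of all genes tested), and none was with upper-quartile scaling or library totals alone. Of these 18, 15 had a log2 fold-change below 0 (6 when scaled to the members' own sum).

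The 3 members with the highest level per length of all annotated exons were Rplp1, Rps15 and Rpl4. Rplp1 stood at 744 CPM per kb of exon, Rps15 at 470 and Rpl4 at 425. Rps15, a small-subunit protein, had 300 ± 9.49 CPM in WT and 293 ± 18.2 CPM in Fmr1-KO (SD, n = 3), with a log2 fold-change of -0.03 (95% interval -0.11 to 0.044). Rpl4, which lines the tunnel through which the new chain leaves, had 869 ± 20.1 and 838 ± 17.6 CPM and a log2 fold-change of -0.05 (95% interval -0.11 to 0.0080). Per kb of the main transcript, the median over the 81 members was 235 CPM, and among the 77 members above 1000 counts the lowest was Rpl7l1 with 35.9 CPM per kb.

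Several ribosomal protein genes have a paralog with a similar name, which is in some cases used in particular tissues or stages. Rpl22, called lower, had 237, 235 and 251 CPM in WT and 231, 223 and 230 CPM in Fmr1-KO (log2 fold-change -0.08, SE 0.032, adjusted p = 0.0461 by edgeR). That call was lost in 7 of the 14 settings, among them upper-quartile scaling, library totals alone and every fit without 1 library but that without WT replicate 2. Its paralog Rpl22l1 had 38.5 ± 0.378 and 39.7 ± 1.53 CPM (SD, n = 3), with a log2 fold-change of 0.05 (95% interval -0.047 to 0.14). The sign of Rpl22l1 was opposite to that of Rpl22, but the difference between the 2 genes was not tested. Rpl7 and Rpl7l1 had log2 fold-changes of 0.01 and 0.04, and Rps27 and Rps27l of 0.0033 and -0.03, none past the threshold. Rpl3, the peptidyl transferase centre protein, had 414 ± 5.24 CPM in WT and 402 ± 5.89 CPM in Fmr1-KO (SD, n = 3), whereas its muscle paralog Rpl3l had 4 to 8 counts in each library. Rpl39l, known from the testis, had 5 to 14 counts, and Rpl10l, also known from the testis, had 0 counts in each library, which allows up to 3 counts per library by counting error alone. Rps27rt, a copy of Rps27 with an identical stretch of 341 bases, had 3 to 10 counts. Reads from that stretch cannot be told apart, and 98.4% of the 100-base stretches of Rps27 occur in another transcript.

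Members on chromosome X were looked at because the libraries differed in Xist, the RNA of the silenced X chromosome, with 306 ± 7.34 CPM in WT against 916 ± 96.4 CPM in Fmr1-KO (SD, n = 3). Rpl10, needed for a late step of large-subunit maturation, had 206, 207 and 208 CPM in WT and 213, 200 and 214 CPM in Fmr1-KO (log2 fold-change 0.02, adjusted p = 0.737 by edgeR). Rpl39 had 54.7 ± 1.67 and 53.1 ± 2.61 CPM, and Rpl36a 94.9 ± 2.96 and 93.0 ± 4.14 CPM (SD, n = 3). None of these or of Rps4x was called by edgeR or DESeq2, and none had an unadjusted p under 0.05. The part of Xist in these values was not tested.

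A few members with low counts share exons with other annotations. Rps4l, with a mean of 630 counts, had 0% of its transcript in exons shared on the same strand, and Rpl19, with 6152 counts, had 10.65%. Rpl24 had 18 to 28 counts per library, and 71.5% of the bases of its main transcript lie in exons shared on the same strand with a read-through annotation, Gm28037. Rps10 had 53.6% of its transcript in such exons, and Rpl13a 59.3%. Per kb of transcript these stood at 0.991, 2.79 and 21.97 CPM, below the 235 CPM of the median member. By default the counting method leaves out reads that fall in exons of more than 1 gene, so these levels were not read as levels of the mRNA, and the shared exons were read from an earlier annotation release than the one the authors counted with. How the counts fell in that release was not checked, and the part of the shared exons in them was not tested. For the median member 34.8% of its 100-base stretches occurred in transcripts of another gene name, and for 33 members it was at least 50%. Among those 33, 6 were called lower (18.2%) and the median log2 fold-change was -0.040. Among the 22 members with under 20%, 3 were called lower (13.6%) and the median was -0.034. Both shares were below the 21.9% of all genes tested. With scaling to the members' own sum, these medians were 0.0064 and 0.013.

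Rows that are named as ribosomal protein pseudogenes numbered 319, of which 129 had no count in any library and 13 were tested. None of the 13 was called by edgeR or DESeq2, and 1 had an unadjusted p under 0.05, as a lower value. Their summed level was 18.8 to 23.0 CPM in each library, over all 319 rows.

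Some ribosomal protein genes have other names and were not among the 81. Fau, which encodes a ubiquitin-like protein fused to a small-subunit protein, had 92.4 ± 1.56 CPM in WT and 89.1 ± 1.55 CPM in Fmr1-KO (SD, n = 3; log2 fold-change -0.05, adjusted p = 0.233 by edgeR). Rack1, a scaffold protein on the small subunit, had 555 ± 10.2 and 541 ± 17.2 CPM (log2 fold-change -0.04, adjusted p = 0.368 by edgeR). Rpl36al had 22 to 32 counts, and 63.1% of its transcript was in exons shared with another gene. None of these 3 was called by either tool, and none had an unadjusted p under 0.05.

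Mitochondrial ribosomal proteins form the ribosome of a different compartment and are encoded by a separate set of nuclear genes. Of 77 tested, 10 were called lower (13.0%) and 2 higher (2.60%), against 21.9% and 20.7% of all genes tested. With library totals alone the counts were 6 and 6, and scaled to the cytosolic members' sum 2 and 5. Of all 16976 genes tested, library totals alone called 3212 lower and 4207 higher, and scaling to the members' sum 2585 and 4058. The median log2 fold-change of the 77 genes was -0.014, which became 0.014 with library totals alone and 0.032 when scaled to the cytosolic members' sum. The absolute log2 fold-change had a median of 0.042, beside 0.040 in the cytosolic family. Other TOP mRNAs encode mainly elongation and initiation factors. Of 17 tested, 3 were called lower (17.6%) and 2 higher (11.8%), with a median of -0.037 (0.010 when scaled to the cytosolic members' sum). Upper-quartile scaling called 3517 of all genes tested lower and 3743 higher. For these 17, that scaling and library totals alone each gave 1 lower and 4 higher, and scaling to the members' sum 0 and 4. Eef1g, an elongation factor subunit, had the lowest value at -0.10 (adjusted p = 0.00777 by edgeR, a call lost when scaled to the members' sum), and Hnrnpa1, a splicing regulator, the highest at 0.10 (adjusted p = 0.00532 by edgeR).

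Ribosome assembly factors process rRNA and join it to the ribosomal proteins in the nucleolus. Of 95 tested, 23 were called lower (24.2%) and 2 higher, against 21.9% and 20.7% of all genes tested. Their median log2 fold-change was -0.040, and 0.0082 when scaled to the cytosolic members' sum. With library totals alone 18 were called lower and 7 higher, against 3212 and 4207 of all 16976 genes tested. DESeq2 called 20 lower and 0 higher, against 19.7% and 16.5% of the genes it tested. At an unadjusted p under 0.05, edgeR had 30 lower and 5 higher of these 95, against 4224 and 4155 of all 16976 genes tested. Bysl, which acts in small-subunit maturation, had the largest fall, from 57.9 ± 2.09 to 45.8 ± 2.50 CPM (SD, n = 3; log2 fold-change -0.34, SE 0.045, adjusted p = 2.81e-06 by edgeR). Gar1, a protein of the H/ACA particles that modify rRNA, was higher at 0.15 (adjusted p = 0.0484 by edgeR). The call of Gar1 was lost with DESeq2, with no filter, with the replicate block and without any 1 library other than WT replicate 3. Of 15 genes of RNA polymerase I, which transcribes the rRNA precursor, 4 were called lower (26.7%) and 1 higher (6.67%). With library totals alone the counts were 3 and 2, scaled to the members' sum 1 and 2, and by DESeq2 3 and 0. Scaled to that sum, 2585 of all 16976 genes tested were called lower and 4058 higher. Polr1d, a subunit shared with RNA polymerase III, fell by 0.31 on the log2 scale (SE 0.056, adjusted p = 0.00011 by edgeR), and Taf1a, an initiation factor, rose by 0.19 (adjusted p = 0.0196 by edgeR). The call of Taf1a was lost with DESeq2 and when replicate 1 or 3 of either genotype was left out.

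Regulators of ribosomal protein genes and their mRNAs went in both directions, with 4 of 14 called lower (28.6%) and 4 called higher (28.6%), against 21.9% and 20.7% of all genes tested. With library totals alone the counts were 2 and 5, and scaled to the cytosolic members' sum 1 and 4. Of all 16976 genes tested, library totals alone called 3212 lower and 4207 higher, and scaling to the members' sum 2585 and 4058. Myc, a transcription factor that drives ribosome production, had 54.1 ± 1.29 CPM in WT and 43.9 ± 0.422 CPM in Fmr1-KO (SD, n = 3; log2 fold-change -0.30, SE 0.040, adjusted p = 2.48e-06 by edgeR). Its relative Mycn had a log2 fold-change of -0.10 (SE 0.041, adjusted p = 0.0663 by edgeR). Mtor, which acts upstream of the TOP motif, had -0.15 (SE 0.032, adjusted p = 0.000878 by edgeR), and Larp1, which binds that motif, had -0.09 (SE 0.032, adjusted p = 0.0256 by edgeR). Both calls were lost when scaled to the members' sum, and that of Larp1 also with library totals alone and when replicate 1 of either genotype or replicate 3 of WT was left out. Eif4ebp1, an inhibitor of cap-dependent initiation that mTOR switches off, rose from 12.9 ± 0.271 to 17.1 ± 1.26 CPM (SD, n = 3; log2 fold-change 0.41, SE 0.069, adjusted p = 5.01e-05 by edgeR).

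The libraries differed in depth and in cell content as follows. Totals ran from 30348556 to 35126207 counts, and Fmr1 itself was lower in all Fmr1-KO libraries, at 57.4 ± 3.67 CPM against 113 ± 4.50 CPM in WT (SD, n = 3). Markers of neurons were present, with a summed level of 8145 to 8300 CPM in WT and 6658 to 6996 CPM in Fmr1-KO. Of these 18 markers, 15 were called lower and 2 higher. Markers of dividing cells were higher in Fmr1-KO for 21 of 21 genes, with 1068 to 1121 CPM in WT and 1754 to 1776 CPM in Fmr1-KO. Of 12 progenitor markers 6 were higher and 1 lower, with 3554 to 3592 and 3923 to 4014 CPM. Of 10 astrocyte markers 6 were lower and 3 higher, with 4978 to 5064 and 4313 to 4673 CPM. Of the oligodendrocyte lineage, 10 of 10 were lower, with 2346 to 2551 and 1344 to 1448 CPM, and of microglia 9 of 10 were lower, with 230 to 255 and 132 to 149 CPM. Of 8 endothelial and mural markers tested, 4 were higher and 3 lower, with 259 to 283 and 417 to 438 CPM. Over all genes tested, 20.7% were called higher and 21.9% lower. For each of these 7 lists the summed levels of the genotypes did not overlap, whereas those of the ribosomal protein genes did. The part of these cells in the values of the ribosomal protein genes was not tested, and fewer cells of a type and less RNA per cell cannot be told apart in such bulk libraries.

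**Figure D5:**
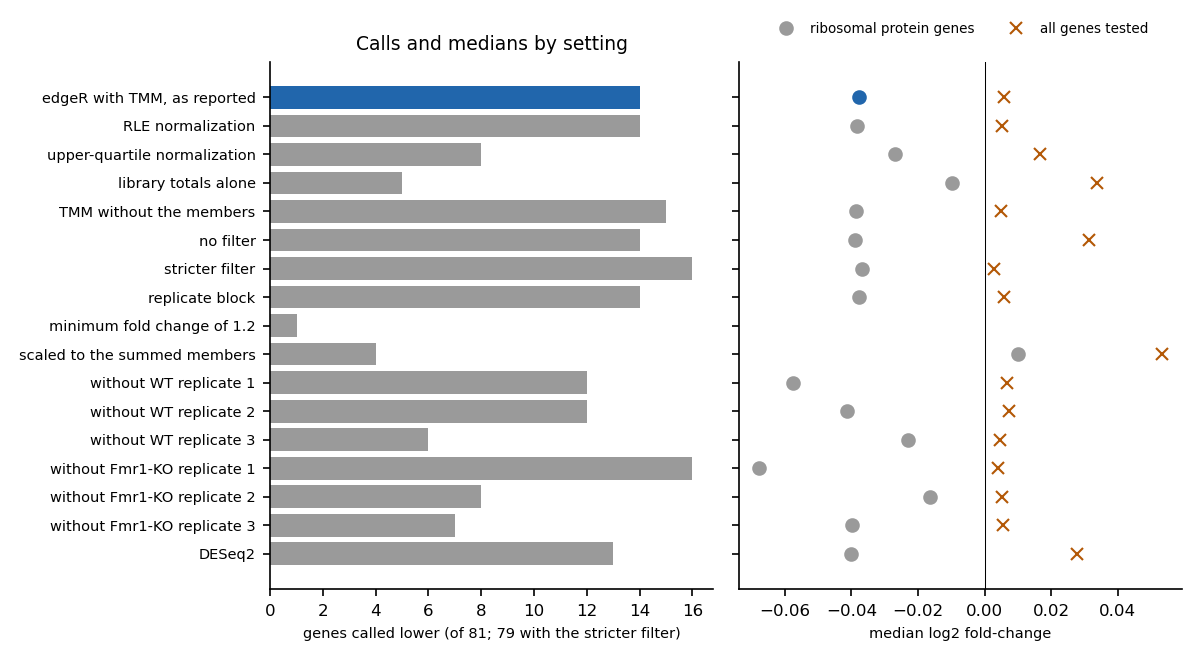
Number of ribosomal protein genes called lower in Fmr1-KO (left, bars from 0) and median log2 fold-change (right; circles, ribosomal protein genes; crosses, all genes tested) under each setting. The number ran from 1 in a test against 1.2-fold to 16, and the median stayed below that of all genes tested in each setting shown, though it rose to 0.0099 with scaling to the members' own sum; no median is shown for the 1.2-fold test.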

How the data were processed

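Values came from 1 table of raw read counts per gene that the authors deposited, without normalization, for 3 WT and 3 Fmr1-KO libraries made from polyA RNA with a stranded kit. Per the labels and the methods, single-end reads of 100 bases were trimmed with FastP, aligned to GRCm38.p6 with STAR 2.7.6a and counted over exons by gene name on the reverse strand with featureCounts; the submitters' processing notes name Subread 2.0.1. Such counting keeps antisense genes apart but does not count reads that are shared between copies or overlapping names in full, and isoforms were not analysed here. The authors used DESeq2 1.22.1.

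The members and gene lists were chosen with earlier results of these data known. Here all genes were fitted with edgeR 4.0.16 in R 4.3.3 (filterByExpr, TMM, glmQLFit and glmQLFTest, 2-sided, genotype as the only term, Benjamini-Hochberg adjustment over 16976 genes, called at an adjusted p under 0.05); DESeq2 1.42.0 was an alternative. CPM are TMM-scaled, SE is the absolute log2 fold-change over the square root of F, and 95% intervals use the t distribution with the degrees of freedom of that fit. Totals were 30348556 to 35126207 counts, and pairs of replicates gave a chi-square of 2.19 to 3.73 for each degree of freedom, above counting noise. Intervals cover the spread between these libraries and not the choice of scaling.

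Coordinates, lengths, shared exons and shared 100-base stretches came from GENCODE M21 on GRCm38, in which 98.6% of tested names were found and which is an earlier release than that used for the counts, and start sequences from RefSeq. Pairs were aligned as nucleotides with Biopython 1.88. Genes were named by a rule: Fmr1; the 8 called members with the largest fall and the 8 with the largest rise, at 10 CPM or more; the 3 highest members per exon length; paralog pairs; stalk genes; Rps6, Rpl5, Rpl11, Rpl10 and Rpsa; members on chromosome X; Fau and Rack1; Larp1, Mtor, Myc and Mycn; and the called gene with the largest change in each direction in each list of the pathway. A result for another gene under this rule is not reported here. Rpl9, Rpl19, Rps18 and Rpl6 were named after their calls were seen, and members at the count minimum, with exceptional intervals or low levels, after their values were. The fitting code was tested on simulated data. Alternatives were other scalings, filters and a count model, the replicate number as a block, each library left out and a test against 1.2-fold.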

Additional observations from a re-analysis of the deposited data

How the results depend on the processing

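Against 14 ribosomal protein genes called lower by edgeR, 13 were by DESeq2, 14 with RLE scaling, 15 with TMM factors computed without the members, 14 with no filter and 16 of 79 with the stricter filter. Upper-quartile normalization gave 8, library totals alone 5. RLE scaling called 3736 of all 16976 genes tested lower, and TMM factors computed without the members 3742. The upper-quartile setting called 3517 of them lower, and the totals setting 3212. How many of all genes were called under the other filters is not given here. The number of members called lower was 1 in the test against 1.2-fold. It was 4 when scaled to the summed members, a setting added after the data had been seen. It ran from 6 to 16 when each library was left out in turn, in fits for which the share of all genes called is not given here. The number called higher was 0 in each of these settings. The median log2 fold-change ran from -0.068 to -0.016 without 1 library each and was -0.027 for upper-quartile scaling and -0.0098 for library totals alone. It turned to 0.0099 when scaled to the summed members, which sets the family's sum equal in all libraries by construction. All genes together had a median of 0.034 with library totals alone and 0.053 with that scaling.

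With the replicate number as a block (replicate block), 14 members were again called lower, with a median of -0.038. Same-numbered WT and Fmr1-KO libraries did not deviate together, with correlations across genes of -0.029, 0.032 and -0.015, so the numbers were taken as names only. Of the genes named, Gar1 lost its call with the block.

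Of 703 values of single genes under the alternatives, 601 kept their sign and their side of the threshold, 75 lost the call, 3 gained it and 24 changed sign. No value that changed sign was called before or after. Rplp0 was 0.0017 for upper-quartile scaling and 0.019 for library totals alone, where Rplp2 was 0.0044. Scaled to the summed members, Rps15 was 0.012, Rpl3 0.0048, Rpl39 0.0063, Rpl36a 0.019, Rps4x 0.016, Rps27l 0.015, Rplp0 0.038, Rplp2 0.024, Rpl5 0.019 and Rack1 0.012. Without 1 library each, the log2 fold-change ran from -0.00027 to 0.025 for Rpl7, -0.033 to 0.040 for Rps27, -0.071 to 0.011 for Rplp2, -0.29 to 0.0048 for Rpl36al, -0.048 to 0.0077 for Rpl36a, -0.059 to 0.019 for Rps27l, -0.042 to 0.024 for Rplp0 and -0.0035 to 0.046 for Rpl10. The cause of the other shifts was not tested. With 3 libraries of each genotype the members had a median SE of 0.034, beside a median absolute log2 fold-change of 0.040.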
